A study of Mus musculus with 2 samples.

Results

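The genes described here are the 10 core genes of antigen presentation by MHC class I, chosen by name among the 48825 features of the count matrices: H2-K1, H2-D1, B2m, H2-T23, Tap1, Tap2, Tapbp, Psmb8, Psmb9 and Psmb10. They were followed across 17 classes of cells from the parotid glands of wild-type female C3H mice, in a control library and in a library made after irradiation (IR). The IR mice received 6 Gy per day to the head and neck on 5 days, 30 Gy in all, starting at 6 to 10 weeks of age, and the glands were taken 10 months later. The control mice were not irradiated. The cells of 2 mice were pooled in each library, so that every condition is 1 sample with no replicate check. Differences between the libraries therefore carry intervals of counting error only, and none can be told apart from a difference between the pooled mice or between the preparations.

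MHC class I displays peptides from proteins made inside a cell, and CD8+ T-cells and natural killer cells inspect that display. Proteasomes cut the proteins, with the interferon-inducible catalytic subunits Psmb8, Psmb9 and Psmb10 taking the places of Psmb5, Psmb6 and Psmb7 in the immunoproteasome. The transporter Tap1/Tap2 carries the peptides into the endoplasmic reticulum, where tapasin (Tapbp) bridges the transporter to an empty heavy chain. H2-K1 and H2-D1 are classical heavy chains, H2-T23 is the non-classical heavy chain Qa-1, and B2m is the light chain that all of them need. Nearly every nucleated cell uses this pathway, whereas MHC class II is largely a property of professional antigen-presenting cells. H2-K1, H2-D1, H2-T23 and B2m are called presenting chains below, and the other 6 genes processing genes.

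The control matrix held 5550 barcodes and 22707876 UMIs (unique molecular identifiers, each counting 1 captured molecule), and the IR matrix 7793 barcodes and 23890757 UMIs. Of these barcodes, 3378 and 5286 had at least 200 genes and at most 5% mitochondrial UMIs and were kept. The median kept cell held 2907.5 UMIs in the control library and 2461.5 after IR, and the members took 84245 and 113042 UMIs of the kept cells. The libraries shared 12 barcodes, 3 of them among kept cells. Classes were clusters named from marker genes, and a name means cells like that type: acinar cells (385 control and 384 IR cells), Etv1+ cells (246 and 240), intercalated duct cells (124 and 147), B-cells (837 and 832), all T-cells (1205 and 2877) and smaller classes. Among the smaller ones were macrophages of a C1q cluster (51 and 58), dendritic cells (44 and 88), natural killer cells (29 and 76) and stromal cells (31 and 17). In the dendritic class 5 of its 8 fixed markers were detected. S100a8 and S100a9, also on the dendritic list, were not among these and were the leading genes of the C1q cluster of macrophages. That cluster had all 7 macrophage markers at 2-fold or more over the other classes, with Il1b, Cxcl2 and Cd14 also among its 10 leading genes. Whether it holds other cell types as well was not tested. A cycling cluster and a cluster led by Jchain and haemoglobin genes were left without a cell type. Levels are given as CPM, UMIs per 1000000 UMIs of the class, with 95% intervals in brackets after ratios and shares. Levels of different genes are not compared, since the method reads only transcript ends. C3H mice carry the H2-k haplotype, while reads were aligned to a C57BL/6 genome with the H2-b haplotype, so reads of a polymorphic heavy chain can be lost or given to a related gene, alike in both libraries. How far this moved the heavy chain counts was not tested.

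On the GRCm38 assembly, 8 of the 10 genes lie on chromosome 17, in the mouse MHC region. In the annotation Psmb9 runs from 34181987 to 34187764 on the minus strand, Tap1 from 34187553 to 34197225, Psmb8 from 34197721 to 34201454 and Tap2 from 34203527 to 34216321 on the plus strand, so these 4 genes follow each other, and the starts of Psmb9 and Tap1 overlap head to head. Tapbp spans 33915899 to 33929292 on the plus strand, H2-K1 33996017 to 34000347 on the minus strand, H2-D1 35262730 to 35267499 on the plus strand and H2-T23 36029773 to 36032855 on the minus strand. B2m lies on chromosome 2 from 122147686 to 122153083, plus strand, and Psmb10 on chromosome 8 from 105935735 to 105938444, minus strand. All 10 are annotated as protein coding.

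The promoters of H2-K1, H2-D1 and B2m are shown because they hold the same pair of elements, which the other members with a promoter entry lack at that distance. Promoter sequences are from RefSeq on GRCm38.p6 and were found for 9 of the 10 members. They are those of the C57BL/6 genome, and the letters carried by C3H mice were not checked. In the lines below, given 5′ to 3′ along the gene, capitals mark TGACG (the X2 box) and ATTGG (the Y box, written CCAAT on the other strand). They also mark GGGNNTTCC and GGGACTTTC (letters bound by NF-kB) and GAAANNGAA (a form of the core of the interferon-stimulated response element, ISRE). For H2-D1 only the pair itself is printed. The stretches are at chr17:34000348-34000463 (minus strand, H2-K1), chr17:35262993-35263022 (plus strand, H2-D1) and chr2:122147534-122147653 (plus strand, B2m).
H2-K1: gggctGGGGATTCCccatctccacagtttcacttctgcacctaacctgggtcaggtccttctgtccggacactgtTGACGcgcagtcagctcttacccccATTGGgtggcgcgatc
H2-D1: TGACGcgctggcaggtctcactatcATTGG
B2m: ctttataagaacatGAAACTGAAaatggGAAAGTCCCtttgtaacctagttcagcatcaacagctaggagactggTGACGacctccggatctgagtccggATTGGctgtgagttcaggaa
In all of these the first bases of TGACG and ATTGG lay 25 bases apart, with 20 bases between the boxes, a distance looked for after it was seen in these genes. Of 32817 promoters of the same length, 31 (0.0945%) held the pair at that distance, the heavy chain H2-M3 among them. Searched alone on both strands, TGACG matched 20.8% of all promoters, CCAAT 37.4%, GAAANNGAA 8.55%, the interferon gamma activated sequence TTCNNNGAA 8.29%, GGGNNTTCC 5.82% and GGGACTTTC 0.353%. GGGNNTTCC matched in H2-K1 and H2-D1, GGGACTTTC in B2m, GAAANNGAA in B2m and H2-T23, and TTCNNNGAA in Psmb8. The promoters of Tap1 and Psmb9 share 275 bases and with them 1 TGACG and 1 CCAAT, and the promoter of Psmb10 held none of the 6 motifs. Such matches are letters in a window and no record of binding. Forms of an element that depart from these letters are missed, so a promoter without a match, H2-K1 and H2-D1 included, can still hold one.

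Presenting chains were detected in every class and were the bulk of the pathway's UMIs. Relative to all UMIs of a class they were highest in dendritic cells, which are professional antigen-presenting cells, and lowest in the epithelium. Dendritic cells held 11968 CPM of the 4 chains in the control library, endothelial cells 9538, natural killer cells 8824, FoxP3+ T-cells 8721 and macrophages of the C1q cluster 8720.1. Naive-like T-cells (6822), CD8+ T-cells (6536) and B-cells (5398) formed a middle range, and intercalated duct cells (2671), Etv1+ cells (2038), acinar cells (1829) and striated duct cells (1623) the low end. Among the 16 steps from the highest to the lowest class, 6 separated neighbours whose intervals did not overlap in the control library and 9 in the IR library. The intervals of endothelial, natural killer, FoxP3+ and C1q macrophage classes ran into each other, as did those of the naive-like, Cxcr6+ and CD8+ T-cells and those of acinar and striated duct cells. On this scale of all UMIs, dendritic cells stood apart at the top in both libraries.

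**Figure D1:**
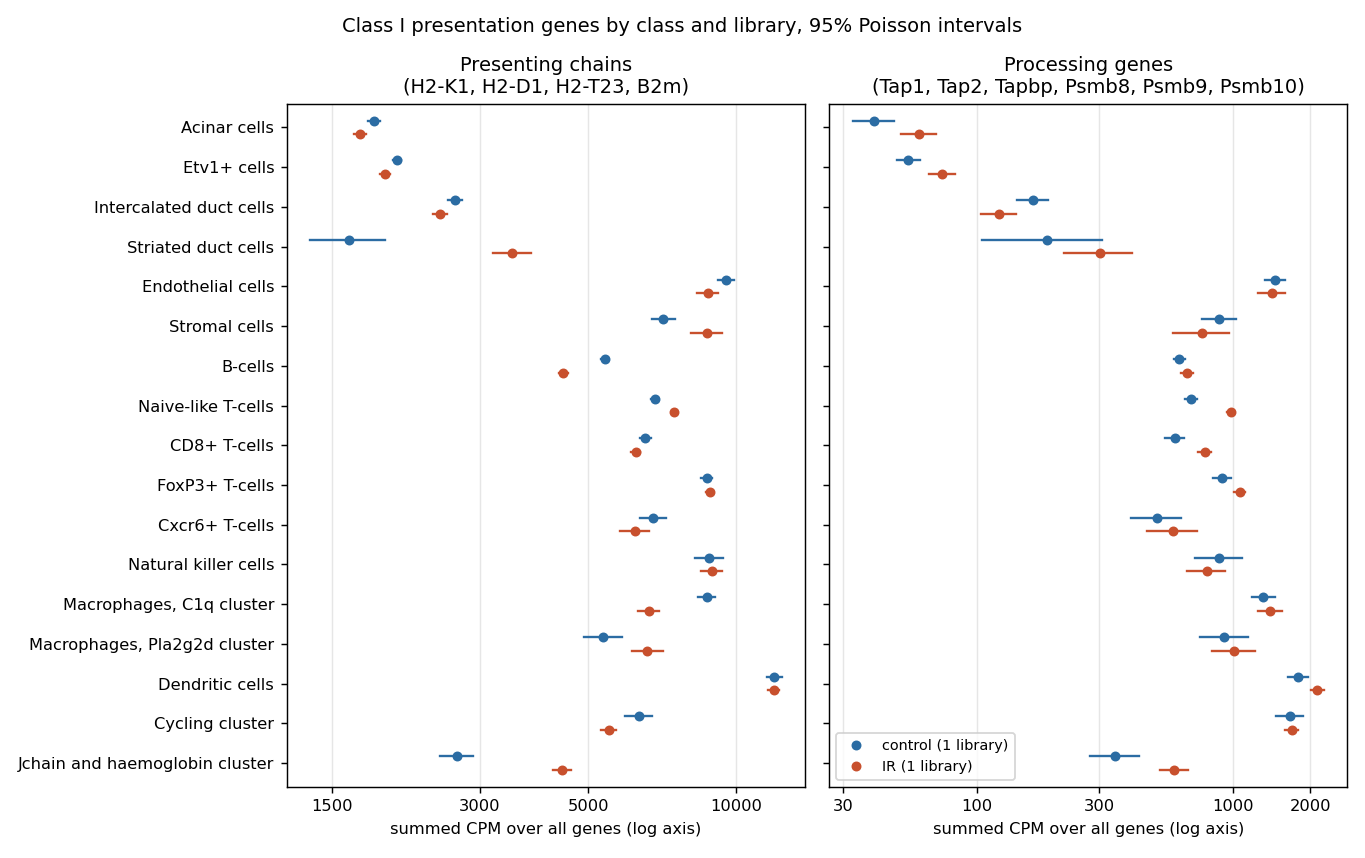
Summed CPM over all genes (log axes) of the 4 presenting chains (left) and the 6 processing genes (right) in 17 classes, control library in blue and IR library in red. Points are the 1 library of each condition and bars 95% Poisson intervals of counting error. The presenting chains run from 1623 to 11968 CPM in the control library, and the processing genes from 39.5 to 1798.

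The single chains gave like orders. H2-K1 was at 5328 CPM in dendritic cells, 3360.3 in naive-like T-cells, 2445 in B-cells and 954 in acinar cells of the control library. B2m was at 3190.2, 1581, 1092 and 403 CPM in the same classes. H2-T23, the ligand of an inhibitory receptor of natural killer cells, was at 402 CPM in dendritic cells, 349 in endothelial cells, 175 in B-cells and 16.5 in acinar cells. Relative to all UMIs, all 4 chains had their highest level in dendritic cells in both libraries. For H2-T23 in the control library, however, no neighbouring classes in the order had separate intervals. The gap between acinar cells and B-cells was widest for H2-T23, whose acinar level was 0.0944 (0.0687 to 0.127) of the B-cell level, against 0.39 (0.373 to 0.408) for H2-K1.

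The low place of the secretory epithelium depended on what the counts were divided by. A few secretory genes, such as Bpifa2, Amy1 and Pip, with mitochondrial and haemoglobin genes and Gm42418, took 86.7% of all UMIs in acinar cells, 81.7% in Etv1+ cells and 75.7% in intercalated duct cells of the control library, but 11.4% in B-cells. With these abundant genes left out of the total, the 4 chains came to 13732 CPM in acinar cells, 11149 in Etv1+ cells and 10994 in intercalated duct cells. These levels lay above B-cells (6089.7) and next to endothelial cells (10562). The acinar level was also above that of dendritic cells (12761), so on this scale dendritic cells were not at the top in the control library. H2-K1 in acinar cells then stood at 2.6 (2.48 to 2.72) times its B-cell level and B2m at 2.46 (2.29 to 2.63) times, so the direction against B-cells turned with the scale for H2-K1, H2-D1 and B2m. H2-T23 stayed below the B-cell level on this scale too, at 0.628 (0.457 to 0.847) of it. Counted simply as UMIs per cell, the chains came to 14.1 in an acinar cell, 15. in a B-cell, 27.2 in an intercalated duct cell, 55.1 in an Etv1+ cell and 74.4 in a dendritic cell. For the 4 chains together, no single statement of more or less in secretory epithelium than in B-cells therefore held on all of these scales.

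**Figure D2:**
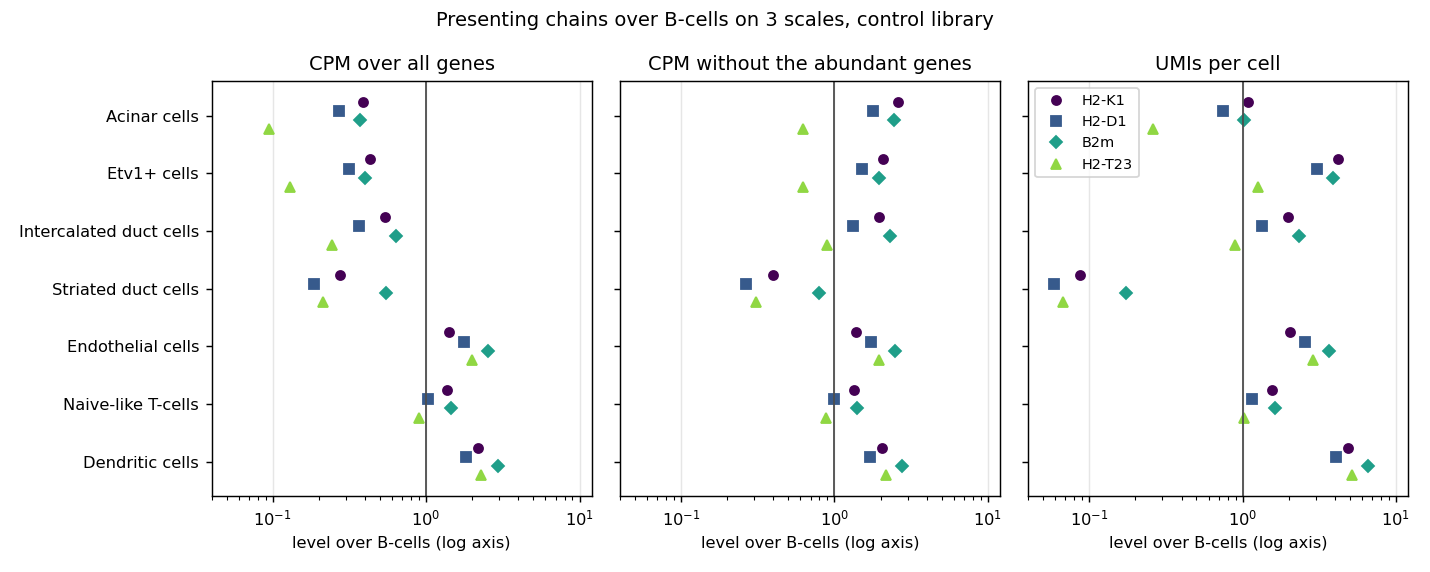
Level of the 4 presenting chains in 7 classes over their level in B-cells of the control library (log axes; the vertical line is 1), as CPM over all genes, CPM without the abundant genes and UMIs per cell. H2-K1 in acinar cells moves from 0.39 to 2.6 and 1.08, while endothelial and dendritic cells lie above 1 on each scale.

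Immune cell transcripts were present in the epithelial classes too. The 10 immune markers looked at (Ptprc, Cd52, Laptm5, Coro1a, Cd79a, Cd79b, Ms4a1, Cd3d, Cd3e and Trbc2) summed to 76.6 CPM in acinar cells, 26.1 in Etv1+ cells and 66.5 in intercalated duct cells of the control library, with none of the 10 at 0, against 7153 in B-cells and 4631 in T-cells. For each immune marker UMI, acinar cells held 23.9 UMIs of the chains (20.9 to 27.4) and Etv1+ cells 77.9 (67.1 to 91.), where B-cells held 0.755 and T-cells 1.53. C1q macrophages held 2.45, dendritic cells 4.14, stromal cells 19.2 and endothelial cells 92.6. After IR these ratios were 8.53 in acinar cells, 30. in Etv1+ cells, 0.558 in B-cells and 1.24 in T-cells. They were 1.83 in C1q macrophages, 4.18 in dendritic, 9.26 in stromal and 9.21 in endothelial cells.

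Transporter and tapasin transcripts were sparse in epithelium. Tap1 was at 6.75 CPM in acinar cells (20 UMIs), 13.2 in Etv1+ cells, 20.6 in intercalated duct cells, 44.3 in B-cells, 115 in endothelial cells and 121 in dendritic cells of the control library. Tap2, its partner, was highest in endothelial cells (149.8 CPM) and had 7 UMIs in all acinar cells together. Tapbp was at 6.41 CPM in acinar cells, 85.7 in B-cells, 246 in endothelial cells and 278 in dendritic cells. No neighbouring classes in the order of Tap1, Tap2 or Tapbp had separate intervals in the control library, so these orders are coarse. Without the abundant genes, Tap1 came to 1.01 (0.594 to 1.65) times the B-cell level in acinar cells, an interval that spans equality, and 1.69 (1.06 to 2.62) times in intercalated duct cells.

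Immunoproteasome UMIs were few in acinar and Etv1+ cells on both scales. Psmb8, the chymotrypsin-like subunit, was at 17.9 CPM in acinar and 17.4 in Etv1+ cells, 65.7 in intercalated duct cells, 309.5 in B-cells, 349 in naive-like T-cells, 539.8 in endothelial cells, 921 in dendritic cells and 934 in the cycling cluster. Even without the abundant genes it stood at 0.385 (0.285 to 0.509) of the B-cell level in acinar cells and 0.273 (0.223 to 0.333) in Etv1+ cells. In intercalated duct cells it stood at 0.774 (0.609 to 0.973) on that scale, Psmb9 at 0.741 (0.46 to 1.14) and Psmb10 at 0.995 (0.613 to 1.55). A Psmb8 UMI was found in 11.2% of acinar cells and 52.9% of B-cells, whose median depths were 5129 and 2539 UMIs, and after thinning each cell to 1000 UMIs in 2.72% and 24.3%. In the same thinned acinar cells the T-cell gene Trbc2 was found in 3.0%, a share of cells no lower than that with Psmb8, although acinar cells should lack Trbc2. Per immune marker UMI, processing genes had 0.515 UMIs (0.409 to 0.647) in acinar cells, 2.06 in Etv1+ cells, 0.0863 in B-cells and 0.15 in T-cells. Myeloid classes lay near the acinar value, with 0.622 in dendritic cells and 0.37 and 0.473 in C1q and Pla2g2d macrophages. Endothelial cells had 14.2. After IR acinar cells had 0.296 (0.247 to 0.354). How much of the acinar Psmb8 comes from acinar cells was not tested, which also bears on the acinar shares below. Psmb9 and Psmb10 had 13 and 5 UMIs in all control acinar cells.

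The share of immunoproteasome UMIs among those of all 6 catalytic subunits does not depend on the scale. It was 19.2% (15.3 to 23.6) in acinar cells and 19.5% (16.9 to 22.3) in Etv1+ cells of the control library, 46.4% (40.4 to 52.5) in intercalated duct cells, 57.5% (55.3 to 59.8) in B-cells, 65.7% (63.4 to 67.9) in naive-like T-cells, 69.5% (64.9 to 73.8) in endothelial cells and 80.4% (76.5 to 83.9) in dendritic cells. In acinar and Etv1+ cells the UMIs were thus mainly of the constitutive subunits, and in endothelial, lymphoid and dendritic cells mainly of the inducible ones. In the IR library the share was 23.1% (19.4 to 27.3) in acinar cells, 18.5% (15.7 to 21.6) in Etv1+ cells, 58.2% (55.9 to 60.6) in B-cells, 69.9% (63.8 to 75.6) in endothelial cells and 81.8% (79.4 to 84.1) in dendritic cells, with intervals that overlapped those of the control library. Over all T-cells it was 65.% (63.3 to 66.6) in the control library and 68.% (66.9 to 69.) after IR, intervals that did not overlap. In the single exchanges of subunits the inducible part was likewise smaller in acinar than in dendritic cells. In B-cells, however, Psmb9 was the smaller part of its pair. Psmb9 made up 7.74% (4.18 to 12.9) of the UMIs of Psmb9 and Psmb6 in acinar cells, 34.8% (31. to 38.8) in B-cells and 66.7% (57.4 to 75.1) in dendritic cells. Psmb10 made up 9.43% (3.13 to 20.7) of Psmb10 and Psmb7 in acinar cells and 56.5% (44. to 68.4) in dendritic cells.

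**Figure D3:**
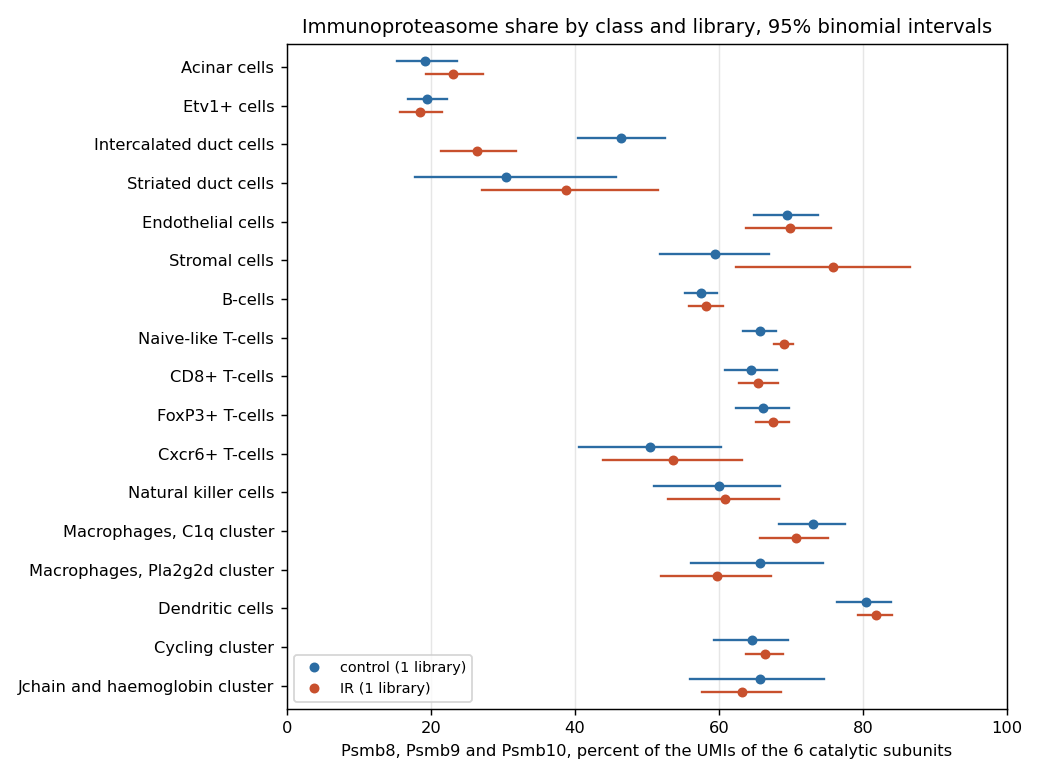
Psmb8, Psmb9 and Psmb10 as a percent of the UMIs of these and Psmb5, Psmb6 and Psmb7, by class (control in blue, IR in red, 1 library each), with exact 95% binomial intervals of counting error. Acinar and Etv1+ cells lie at 19.2% and 19.5% in the control library and dendritic cells at 80.4%; intercalated duct cells are at 46.4% in the control library and 26.4% after IR.

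Processing genes therefore took a small part of the members' UMIs in acinar, Etv1+ and intercalated duct cells. In the other classes given here the part was larger. The part was 2.11% (1.75 to 2.53) in acinar cells, 2.58% (2.32 to 2.86) in Etv1+ cells, 5.83% (5.09 to 6.65) in intercalated duct cells, 10.3% (9.76 to 10.8) in B-cells, 13.3% (12.2 to 14.5) in endothelial cells, 13.1% (12. to 14.2) in dendritic cells and 20.8% (18.7 to 23.1) in the cycling cluster. The cells of that cluster were not assigned to a type. Striated duct cells were not at the low end, with 15 UMIs of processing genes and 130 of chains in the control library.

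Over the 16 classes with at least 20 cells in both libraries, the members' log2(CPM + 10) went together. In the control library the median Pearson correlation was 0.947 among the 6 pairs of chains, 0.817 among the 15 pairs of processing genes and 0.872 between the groups. The low place of the secretory epithelium relative to all UMIs enters each of these correlations. Without the abundant genes the medians were 0.725, 0.624 and 0.530 in the control library and 0.601, 0.493 and 0.166 after IR, where pairs between the groups went down to -0.268. The likeness of chains and processing genes over classes was thus weak after IR on that scale. By the same measure the genes most like the members' mean included Gnai2, Morf4l2, Rap1a, Tmx3, Vim, Etf1, Wipf1, Mapre1 and Upf3a, from 0.950 for Gnai2 to 0.925 for Upf3a, with 0.903 for both in the IR library. Without the abundant genes 2 of them, Tmx3 and Morf4l2, were again among the 10, with Lims1, Fnip1, Nlrc5, Bst2, Degs1, Cers5, Ktn1 and Dnajb9. Nlrc5, the transactivator of class I genes, had a correlation of 0.838 in the control library and 0.363 after IR, and Dnajb9 one of 0.802 and 0.0221. Bst2 had 0.827 and 0.785 and Lims1 0.869 and 0.685, so the list held in part in the other library.

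Between the libraries, 18 of the 105 pairs of a member and a class with at least 100 UMIs differed by 1.5-fold or more, 15 of them higher and 3 lower in the IR library. That is 17.1% of the pairs, against 16.3% of all genes and classes under the same rule, so members as a set differed about as often as genes in general. The minimum counts both libraries together, so a member, like any other gene, can reach it through the library where it is higher. Of the 18, 6 were processing genes in T-cell classes, 3 were chains in striated duct cells, and 2 came from acinar, Etv1+, endothelial and B-cells together.

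**Figure D4:**
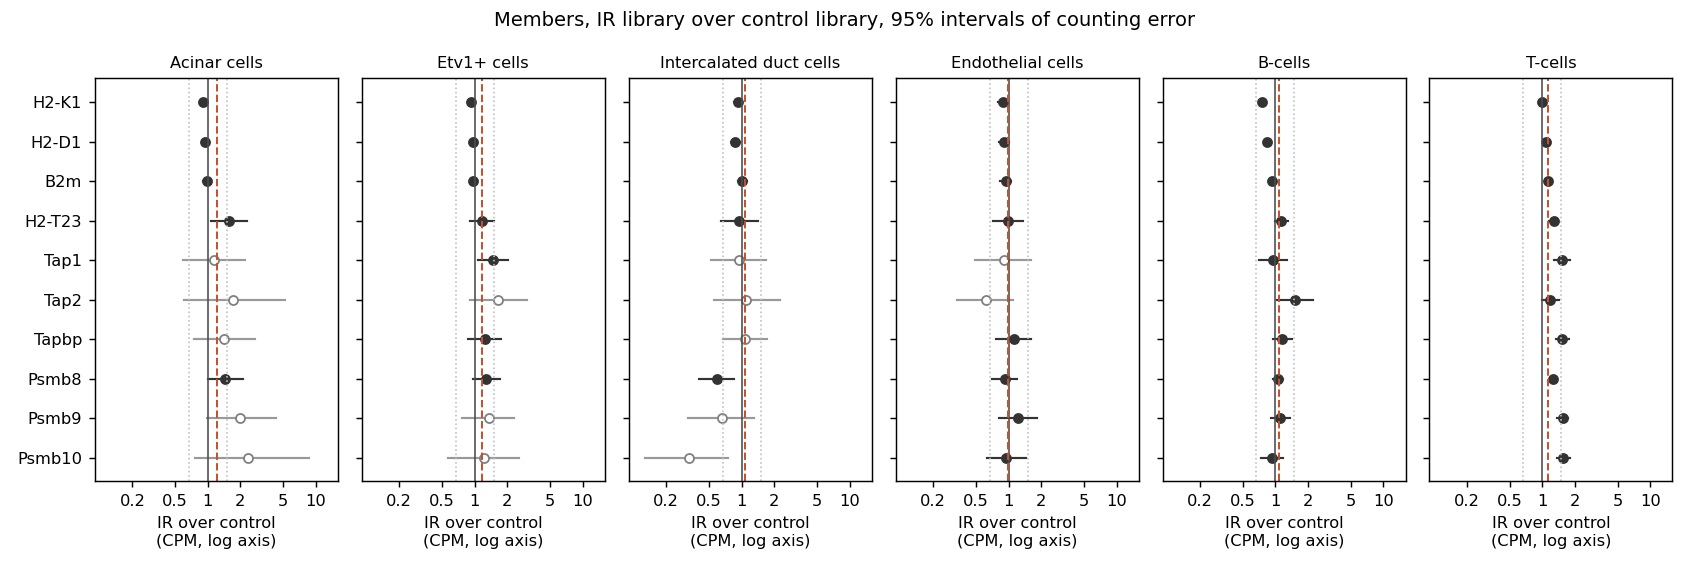
IR over control of each member's CPM (log axes) in 6 classes, with 95% intervals of counting error. Filled points rest on at least 100 UMIs and open points on fewer, dotted lines are 1.5-fold either way, and the dashed line is the median over all genes with at least 100 UMIs in that class, from 0.987 in endothelial cells to 1.22 in acinar cells. In T-cells Tap1, Tapbp, Psmb9 and Psmb10 lie to the right of the 4 chains, and in B-cells H2-K1 (0.752) lies to the left of the other members.

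In acinar cells, which make the amylase-rich saliva, the presenting chains differed little relative to all UMIs. H2-K1 had 2827 UMIs in the control library and 2357 after IR, 954 CPM in the control library and 859 CPM after IR, a ratio of IR over control of 0.901 (0.852 to 0.951). B2m was at 403 CPM in the control library and 393 CPM after IR, a ratio of 0.976 (0.898 to 1.06), and H2-D1 had a ratio of 0.948 (0.876 to 1.03). H2-T23 was the 1 of 5 members tested that passed 1.5-fold, at 16.5 CPM in the control library and 25.9 CPM after IR and 1.57 (1.07 to 2.3), where 18.3% of all genes tested were that much higher and 1.9% that much lower. It came to 1.29 without the abundant genes and 1.2 with TMM factors, under the threshold. The processing genes together were at 39.5 CPM in the control library and 59.4 after IR, a ratio of 1.5 (1.18 to 1.92) from 117 and 163 UMIs, beside a median over all genes of 1.22. Without the abundant genes the ratio was 1.24, and that of the chains 0.772 instead of 0.935 (0.899 to 0.972).

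Immune cell transcripts of the acinar class went in the same direction as its processing genes. All 10 immune markers were higher in IR acinar cells, with a sum of 76.6 CPM in the control library and 201 after IR, a ratio of 2.62 (2.24 to 3.07). The class II genes H2-Aa, H2-Ab1, H2-Eb1 and Cd74 summed to 102 and 256 CPM, a ratio of 2.52 (2.2 to 2.89). In the acinar cells without a UMI of any of the 10 markers, 323 control and 260 IR cells, the processing genes had a ratio of 1.29 (0.939 to 1.76), H2-T23 of 1.27 (0.799 to 2.01), class II of 1.27 (0.898 to 1.8) and the chains of 0.928 (0.885 to 0.973). H2-T23 and class II were thus nearer to 1 in these cells, and the intervals of both, as of the processing genes, spanned 1. Deep cells are likelier to hold a marker UMI, so the cells without one can also differ from their class in depth. The part of immune cell RNA in the difference was not tested beyond these values.

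**Figure D5:**
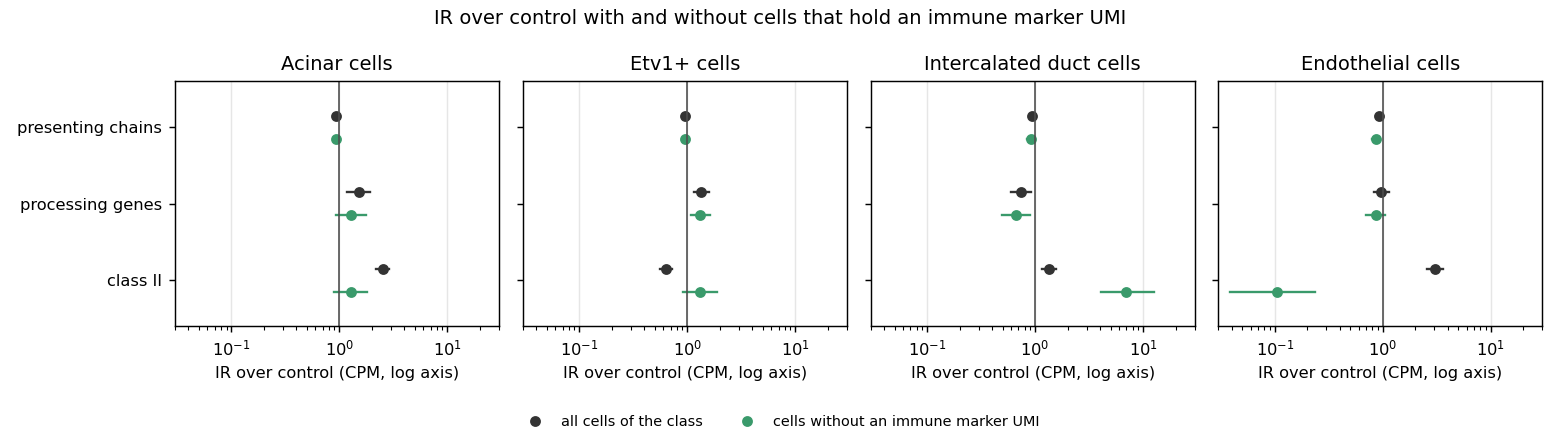
IR over control of summed CPM (log axes) for the presenting chains, the processing genes and class II, in all cells of 4 classes (black) and in those without a UMI of 10 immune markers (green), with 95% intervals of counting error. On this scale of all UMIs the chains lie nearer 1 than class II, down to 0.857 in endothelial cells without a marker UMI. Without the abundant genes (not drawn) the chains of all acinar cells come to 0.772. Class II goes from 2.52 to 1.27 in acinar cells and from 3.01 to 0.105 in endothelial cells. The 0.105 rests on 166 control and only 6 IR UMIs.

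In Etv1+ cells, a secretory population with features of acinar and intercalated duct cells, no member passed 1.5-fold in either direction among the 7 tested, where 14.4% of all genes tested were higher and 1.62% lower. H2-K1 was at 1049.8 CPM in the control library and 969.6 CPM after IR, a ratio of 0.924 (0.888 to 0.961), B2m had one of 0.967 (0.911 to 1.03) and H2-T23 one of 1.16 (0.898 to 1.5). Tap1 came nearest the threshold, with 88 UMIs in the control library and 79 after IR, 13.2 CPM in the control library and 19.7 CPM after IR, a ratio of 1.49 (1.08 to 2.04). The processing genes together had a ratio of 1.35 (1.15 to 1.58), beside a median over all genes of 1.18, and of 1.14 without the abundant genes. In the 202 control and 162 IR cells without an immune marker UMI it was 1.32 (1.08 to 1.63). Without the abundant genes it was 1.11 (0.9 to 1.36) in these cells, an interval that spans 1. The chains of these cells had a ratio of 0.953 (0.919 to 0.988), and of 0.797 (0.769 to 0.826) without the abundant genes. In all cells of the class, 9 of the 10 markers were higher after IR and their sum had a ratio of 2.45 (2.02 to 2.99). The cells without a marker UMI held 10208 of the 13561 chain UMIs of the class in the control library and 4164 of 7735 after IR. Class II, in contrast to acinar cells, was lower in IR Etv1+ cells (0.631, 0.553 to 0.718) and at 1.32 (0.906 to 1.9) in cells without a marker. The median Etv1+ cell held 19682.5 UMIs in the control library and 4957.5 after IR. Among the deep cells of the class, 176 control and 150 IR cells, processing genes had a ratio of 1.31 (1.11 to 1.55) and chains of 0.944 (0.917 to 0.972).

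Intercalated duct cells went the other way for the immunoproteasome. Psmb8 had 83 UMIs in the control library and 52 after IR, 65.7 CPM in the control library and 38.6 CPM after IR, a ratio of 0.587 (0.407 to 0.841), and was the 1 member of 5 tested past 1.5-fold, where 8.94% of all genes tested were that much lower and 9.25% higher. Psmb9 had 23 and 16 UMIs and Psmb10 23 and 8, ratios of 0.652 (0.322 to 1.29) and 0.326 (0.126 to 0.755). The constitutive subunits pointed up (1.33, 1.08 to 1.66), so that the immunoproteasome share was 46.4% (40.4 to 52.5) in the control library and 26.4% (21.4 to 31.9) after IR, with intervals that did not meet. Tap1 (0.938, 0.523 to 1.68), Tap2 (1.1, 0.549 to 2.24), Tapbp (1.06, 0.668 to 1.7) and the chains (0.933, 0.889 to 0.979) were near 1.

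A single cell carried part of this. Of the 179 UMIs of Irf1, the interferon-induced activator of these genes, in control duct cells, 122 (68.2%) came from 1 cell of 48195 UMIs, which also held 21 of the 83 Psmb8 UMIs and 17 of the 54 H2-T23 UMIs. Without it the ratio of Psmb8 was 0.756 (0.513 to 1.11), no longer past 1.5-fold, that of the processing genes 0.896 (0.718 to 1.12) instead of 0.736 (0.596 to 0.907), and that of Irf1 1.14 (0.794 to 1.64) instead of 0.377 (0.283 to 0.498). The immunoproteasome share without that cell was 42.7% (36.2 to 49.4) in the control library, still apart from the IR library. The immunoproteasome subunits then had a ratio of 0.707 (0.516 to 0.964) and the constitutive ones of 1.47 (1.18 to 1.84), so both sets entered that gap. In the deepest group of these cells, led by Ltf (24 control and 25 IR cells), the share was 38.1% (30.2 to 46.5) without the cell and 21.1% (15.1 to 28.2) in the IR library. There the immunoproteasome subunits had 0.751 (0.475 to 1.17), an interval that spans 1, and the constitutive ones 1.73 (1.31 to 2.28). In all cells of the class the sum of the immune markers had a ratio of 1.18 (0.88 to 1.59). In the 96 control and 110 IR duct cells without an immune marker UMI, Psmb8 was at 0.77 (0.457 to 1.3), also short of 1.5-fold, the processing genes were at 0.665 (0.49 to 0.902) and class II was at 6.93 (4.05 to 12.7), from 15 and 135 UMIs. These cells held 1420 of the 3376 chain UMIs of the class in the control library and 1680 of 3359 after IR. That is a smaller part than their part of the cells, so they were shallower than the class. The call of Psmb8 was lost with at least 500 genes and without integration too. Among the other groups of duct cells, the share was 57.1% (28.9 to 82.3) and 24.2% (14.5 to 36.4) in the Bricd5 group, which had 8 control and 62 IR cells. It was 51.6% (33.1 to 69.8) and 32.1% (15.9 to 52.4) in the Cryab group, and 48.6% (31.4 to 66.) and 51.5% (33.5 to 69.2) in the Dcpp2 group, with overlapping intervals in all 3.

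Striated duct cells, which adjust the salt of saliva, had all 3 members tested past 1.5-fold. H2-K1 had 54 UMIs in the control library and 203 after IR (ratio 2.06, 1.52 to 2.84), H2-D1 had 25 UMIs in the control library and 113 after IR (2.48, 1.6 to 3.99) and B2m 48 UMIs in the control library and 178 after IR (2.03, 1.47 to 2.86), where 9.81% of the 214 genes tested were that much higher. The libraries of this class were unlike: the median cell held 721 UMIs in the control library and 1988.5 after IR, abundant genes took 38.4% and 62.8%, and the median ratio over all genes was 0.651. With at most 10% mitochondrial UMIs instead of 5%, H2-K1 came to 1.2 and H2-D1 to 1.11, while B2m kept 1.57. Without the abundant genes the ratios of H2-K1, H2-D1 and B2m were 3.42, 4.11 and 3.37, and with TMM factors 3.35, 4.03 and 3.31. Immune markers were higher in the IR cells too (2.57, 1.4 to 5.1, from 13 and 61 UMIs), and in cells without a marker UMI the chains had a ratio of 2.03 (1.63 to 2.54).

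Endothelial and stromal cells held the pathway at a high level in both libraries. In endothelial cells none of the 8 members tested passed 1.5-fold (5.41% of all genes tested were higher and 9.07% lower). H2-K1 was at 3441 CPM in the control library and 3079.8 CPM after IR (0.895, 0.807 to 0.992), Tapbp at 246 CPM in the control library and 274 CPM after IR (1.11, 0.765 to 1.61) and Psmb8 at 539.8 CPM in the control library and 499.6 CPM after IR (0.926, 0.71 to 1.2). Beside them the immune markers had a ratio of 9.22 (6.33 to 13.8) and class II of 3.01 (2.54 to 3.58). In the 70 control and 25 IR cells without a marker UMI chains were at 0.857 (0.791 to 0.929) and processing genes at 0.86 (0.697 to 1.06). Class II was at 0.105 (0.0381 to 0.234) in these cells, from 166 control and only 6 IR UMIs. In those cells H2-K1 had a ratio of 0.721 (0.623 to 0.832), Psmb8 of 0.713 (0.481 to 1.03), Tap2 of 0.463 (0.176 to 1.04) and Tapbp of 1.17 (0.724 to 1.83). In the 31 control and 17 IR stromal cells the chains had a ratio of 1.22 (1.12 to 1.34) and the processing genes one of 0.855 (0.633 to 1.14). Their immune markers had 70 control and 82 IR UMIs, from class totals of 188682 and 87185, and class II had a ratio of 1.65 (1.39 to 1.97). In the 23 control and 13 IR stromal cells without a marker UMI, chains were at 1.41 (1.24 to 1.59) and processing genes at 0.936 (0.609 to 1.41).

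B-cells, the largest class of the control library, had less of the classical heavy chains in the IR library. H2-K1 was at 2445 CPM in the control library and 1838 CPM after IR (0.752, 0.721 to 0.783), H2-D1 at 1686 CPM in the control library and 1394 CPM after IR (0.827, 0.788 to 0.868) and B2m at 1092 CPM in the control library and 1016 CPM after IR (0.931, 0.878 to 0.987), whereas H2-T23 pointed up (1.13, 0.982 to 1.3). The 4 chains together had a ratio of 0.824 (0.802 to 0.846), below 1 under each of the 7 alternatives, with 0.75 as the lowest, beside a median over all genes of 1.07. Processing genes differed by less than their counting error, at 617 and 661 CPM (1.07, 0.994 to 1.15), and Psmb8 had a ratio of 1.06 (0.949 to 1.17). Only Tap2 of the 10 members passed 1.5-fold, with 50 and 67 UMIs and 1.5 (1.03 to 2.21), where 7.1% of all genes tested were higher and 2.98% lower. Its call was lost without the abundant genes, with TMM factors and without the barcodes of the highest doublet scores. The immunoproteasome share was 57.5% (55.3 to 59.8) and 58.2% (55.9 to 60.6), the same within counting error, and class II, which B-cells hold at a high level, was near 1 for H2-Aa (0.954, 0.927 to 0.983) and Cd74 (1.03, 1.02 to 1.05).

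T-cells differed more in the sum of the processing genes than in that of the chains. The single members did not all follow this split. Over all T-cells the processing genes were at 693 CPM in the control library and 952 after IR, a ratio of 1.37 (1.31 to 1.44), and the chains at 7068 and 7474, a ratio of 1.06 (1.04 to 1.07), beside a median over all genes of 1.14. Of the 10 members, all tested, 4 were past 1.5-fold: Tap1 (47.8 and 72.6 CPM, 1.52, 1.29 to 1.8), Tapbp (79.8 and 123, 1.53, 1.35 to 1.75), Psmb9 (88.5 and 136, 1.54, 1.36 to 1.74) and Psmb10 (70.6 and 110.4, 1.56, 1.36 to 1.79). Of all genes tested, 11.1% were that much higher and 2.54% lower. Psmb8 (1.26, 1.19 to 1.35), H2-T23 (1.27, 1.16 to 1.4), Tap2 (1.18, 0.997 to 1.41), B2m (1.12, 1.09 to 1.16) and H2-D1 (1.09, 1.06 to 1.12) were above 1 by less, and H2-K1 was at 1.0 (0.981 to 1.02). With TMM factors, which set the bulk of genes of the class equal, none of the 4 stayed past 1.5-fold (1.34 to 1.38), the processing genes came to 1.21 and the chains turned to 0.932. The immune markers, which T-cells themselves express, were higher as well (1.31, 1.28 to 1.33), 9 of 10 of them, and Trbc2, a chain of the T-cell receptor, was at 1166 CPM in the control library and 1617 CPM after IR.

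The kinds of T-cell were not alike. In naive-like T-cells Tap1 (1.59, 1.28 to 1.99), Tapbp (1.72, 1.44 to 2.05), Psmb9 (1.54, 1.31 to 1.8) and Psmb10 (1.64, 1.37 to 1.97) passed 1.5-fold, where 12.3% of all genes did. In CD8+ T-cells Tapbp did so (68 and 162 UMIs, 1.62, 1.21 to 2.18), where 10.1% of genes did, and Tap1 had 14 and 59 UMIs, too few for the rule, with 2.86 (1.58 to 5.55). H2-K1 was lower in IR CD8+ T-cells (0.845, 0.806 to 0.886) while H2-D1 and B2m were near 1 (1.07, 1.0 to 1.14, and 1.07, 0.998 to 1.15). In FoxP3+ T-cells, the regulatory T-cells, Psmb10 passed (1.68, 1.16 to 2.48), where 10.1% of genes did, and Tap1 was at 0.897 (0.665 to 1.22). The processing genes together had ratios of 1.43 (1.35 to 1.51) in naive-like, 1.31 (1.18 to 1.45) in CD8+ and 1.17 (1.06 to 1.29) in FoxP3+ T-cells; a difference between these ratios was not tested.

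Naive-like T-cells fell into 2 clusters of unlike size, and the members' ratios differed with them. Cluster 1 had 533 control and 1002 IR cells, a ratio of processing genes of 1.06 (0.978 to 1.14) and an immunoproteasome share of 63.3% (60.5 to 66.) in the control library and 57.1% (54.9 to 59.3) after IR. Cluster 2 had 182 and 872 cells, a ratio of 1.61 (1.46 to 1.77) and a share of 71.6% (67.5 to 75.4) and 77.8% (76.2 to 79.4). The share was thus lower in the IR library in one cluster and higher in the other, and the excess of processing genes in naive-like T-cells lay in cluster 2, which made up more of the IR library's cells. The chains had ratios of 1.08 (1.05 to 1.1) and 1.09 (1.05 to 1.13). These clusters were formed from the same counts, so a gene that differs between the libraries can itself move cells from one cluster to the other, and the immune markers differed in the same way (1.12, 1.09 to 1.16, and 1.56, 1.49 to 1.62).

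Among myeloid and natural killer cells, dendritic cells kept the highest levels in both libraries. Their chains were at 11968 and 11939 CPM (0.998, 0.956 to 1.04) and their processing genes at 1798 and 2135 (1.19, 1.07 to 1.32). Psmb10 passed 1.5-fold, at 143 CPM in the control library and 266 CPM after IR (1.87, 1.3 to 2.74), where 11% of all genes tested did, and H2-T23 had 1.41 (1.13 to 1.77). Psmb10 in dendritic cells and B2m in striated duct cells were the 2 of the 18 calls that held under every alternative run for them. The leading genes of the dendritic class included Ccl22, Fscn1 and Siglech, and no alternative divided the class. A changed make-up of it between the libraries was not tested. In the C1q cluster of macrophages, led by S100a9 and S100a8, the chains were lower in the IR library (0.761, 0.715 to 0.81). H2-T23 passed the threshold there at 0.658 (0.458 to 0.935), where 15.4% of genes were that much lower. In natural killer cells Psmb8 was lower (51 and 57 UMIs, 0.65, 0.438 to 0.968, where 11.4% of genes were), while H2-K1 was at 0.982 (0.874 to 1.1). The call of H2-T23 in C1q macrophages was lost under 5 of 7 alternatives and that of Psmb8 in natural killer cells under 2 of 5. In macrophages of the Pla2g2d cluster the chains had a ratio of 1.23 (1.1 to 1.38) and the processing genes one of 1.09 (0.816 to 1.46), in Cxcr6+ T-cells 0.918 (0.838 to 1.0) and 1.15 (0.837 to 1.59), and in the cycling cluster 0.869 (0.81 to 0.932) and 1.02 (0.889 to 1.17). Class II differed far more in some of these, with a ratio of 4.29 (3.7 to 5.01) in the cycling cluster (186 and 2975 UMIs) and 0.502 (0.472 to 0.533) in the Pla2g2d macrophages, and the part of a changed make-up of these clusters in the class I values was not tested. In the Jchain and haemoglobin cluster 3 of 4 members tested were 1.5-fold higher (H2-K1 1.72, B2m 1.76, Psmb8 1.5), but 41.8% of its genes were, with abundant genes taking 49.1% of UMIs in the control library and 20.7% after IR. None of these 3 calls held without the abundant genes, where H2-K1 came to 1.1, and H2-K1 turned to 0.822 with at most 10% mitochondrial UMIs and to 0.939 without integration.

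Partner genes of the pathway and class II were followed as a list of 31 genes, read in each class against the same share of all genes. In T-cells, 29 of them had at least 100 UMIs, of which 4 were 1.5-fold higher and 1 lower in the IR library, shares close to the 11.1% and 2.54% of all genes tested. The higher ones were Irf1 (1.62, 1.42 to 1.85), Rfxank, a subunit of the RFX complex that binds MHC promoters (1.71, 1.17 to 2.56), the heavy chain H2-Q6 (1.96, 1.4 to 2.79) and Ifng, the cytokine interferon gamma (38 and 178 UMIs, 2.49, 1.75 to 3.63), and the lower one H2-Ab1 of class II (0.649, 0.514 to 0.82). Below the threshold were Nlrc5 (1.42, 1.13 to 1.78), the heavy chains H2-Q4 (1.47, 1.33 to 1.62) and H2-M3 (1.45, 1.16 to 1.83), and the proteasome activator subunits Psme1 (1.16, 1.08 to 1.24) and Psme2 (1.21, 1.11 to 1.32). The constitutive subunits together had a ratio of 1.18 (1.1 to 1.27), lower than the 1.35 (1.29 to 1.42) of the immunoproteasome subunits, and the loading chaperone Calr one of 0.856 (0.809 to 0.906). The median ratio over all genes of the class was 1.14, and Pdia3, another loading chaperone, had 0.965 (0.869 to 1.07). CD8+ T-cells had 50 and 194 UMIs of Irf1 (2.63, 1.92 to 3.67) and 20 and 109 of Ifng (3.7, 2.28 to 6.3), the 2 of 18 partners tested there past 1.5-fold, where 10.1% of all genes were. Ifng met the minimum of 100 UMIs there through its IR count. In naive-like T-cells H2-Q6 and Cd74 of 24 were higher, beside 12.3% of all genes. Counts of H2-Q genes are uncertain, as they resemble each other and the classical heavy chains.

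In B-cells none of the 21 partners tested passed 1.5-fold, where 7.1% of all genes were higher and 2.98% lower. In acinar cells 6 of 10 were higher, beside 18.3% of all genes: the 4 class II genes and the chaperones Canx (1.96, 1.34 to 2.91) and Pdia3 (1.56, 1.17 to 2.1). In Etv1+ cells Pdia3 (1.52, 1.27 to 1.82) and Irf1 (1.61, 1.29 to 2.0) of 15 were higher, and H2-Aa, H2-Ab1 and H2-Eb1 lower (0.584, 0.589 and 0.507), beside 14.4% and 1.62% of all genes. In intercalated duct cells 1 of 8 was lower (beside 8.94% of all genes), Irf1, whose control UMIs came mostly from the single cell described above. In endothelial cells Cd74 of 5 was higher (2.97, 2.42 to 3.67), beside 5.41% of all genes, and in dendritic cells Canx of 12 (1.57, 1.02 to 2.49), beside 11%. Dendritic cells also had more Psme1 (1.34, 1.12 to 1.62) and Psme2 (1.42, 1.18 to 1.72), below the threshold, while their class II genes lay between 0.864 and 1.06.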

How the data were processed

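Single-cell RNA-seq libraries (10x Chromium) were made from dissociated parotid glands, 1 per condition. The deposited values are raw UMI counts per gene and barcode, which the authors made with Cell Ranger 3.0.1 on mm10, with Seurat 3 named in their processing notes. Depth was 22707876 UMIs in the control and 23890757 in the IR matrix. Barcodes under 200 genes or over 5% mitochondrial UMIs were left out. The others were integrated and grouped in R 4.3.3 by Seurat 5.3.0 (2000 variable genes, 30 components, resolution 0.3, or 0.4 for ducts and T-cells, and again with 20 components at 0.8) and the groups named from marker lists. Counts were summed per class and library in Python 3.11.15 with scipy 1.17.1 and divided by the class total. CPM carry exact Poisson, ratios exact conditional binomial and shares Clopper-Pearson 95% intervals, all for counting error only. With 1 library per condition there was no test. A gene was called at 1.5-fold or more with at least 100 UMIs over both libraries in a class. The summing and intervals were checked on simulated data.

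All 10 members were described in each class with at least 20 cells in a library. The partner list had 31 genes, and the genes most alike were the 10 with the highest correlation to the members' mean in the control library among those with at least 200 UMIs. Members, lists and markers were chosen with earlier results of these data known. The resolution of 0.4, the groups within duct, Etv1+ and naive-like T-cells, the cells without an immune marker, the left-out duct cell and the spacing of promoter boxes were chosen after values were seen. Alternatives were at most 10% mitochondrial UMIs, at least 500 genes, no integration, resolution 1.5, leaving out the 6% of barcodes with the highest doublet scores (Scrublet in scanpy 1.11.5), totals without 65 abundant features (16 secretory genes, mitochondrial and haemoglobin genes and Gm42418) and TMM factors from edgeR 4.0.16. Doublets were otherwise kept. Gene positions were read from the GENCODE annotation of GRCm38 and promoters from RefSeq. Some genes that these rules name are not reported here.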

Additional observations from a re-analysis of the deposited data

How the results depend on the processing

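With TMM factors in place of totals, the ratio of IR over control of the presenting chains was 0.719 in acinar cells and 0.75 in B-cells and turned to 0.932 in T-cells, and that of the processing genes was 1.16 in acinar cells, 0.975 in B-cells and 1.21 in T-cells. The acinar chains came to 0.983 with at least 500 genes per cell and to 0.772 without the abundant genes, and the T-cell chains to 1.03 with at most 10% mitochondrial UMIs. The number of calls among members, 18 at 1.5-fold and 100 UMIs, was 3 at 2-fold, 35 at 25% higher or 20% lower, 32 with at least 20 UMIs and 46 with no minimum of UMIs. In the Jchain and haemoglobin cluster the ratio of H2-K1 turned to 0.822 with at most 10% mitochondrial UMIs and to 0.939 without integration, and that of Psmb8 to 0.963 without the abundant genes.

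Turns of levels over B-cells in the control library were looked for only where the level was at least 1.5-fold from that of B-cells. Without the abundant genes they were as follows. H2-K1 came to 2.6 in acinar, 2.08 in Etv1+ and 1.97 in intercalated duct cells, H2-D1 to 1.8, 1.52 and 1.33, B2m to 2.46, 1.94 and 2.32, and Tap1 to 1.01, 1.45 and 1.69. Tapbp came to 1.247 in intercalated duct cells and Psmb8 to 1.07 in the Jchain and haemoglobin cluster. In that cluster H2-K1 came to 1.48, H2-D1 to 1.21 and H2-T23 to 1.2 with at most 10% mitochondrial UMIs, and Psmb8 to 1.73 without integration. These turns appeared where the total, the cells counted or their clustering was changed. What caused them was not tested. Of the 1116 single ratios of members between the libraries under alternatives, 1033 stayed within their counting interval. A turn past 1 was counted only for ratios called at 1.5-fold, and 3 such turns were found. Ratios below that threshold that crossed 1 were not counted as turns. The immunoproteasome share does not depend on the scaling, and TMM was not run for levels over B-cells. No replicate could be left out, and genes under 100 UMIs in a class carry wide intervals. No paired analysis was possible because each condition has 1 library.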
